A study of Mus musculus with 7 samples.

Results

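Regions of open chromatin that were found in the glandular part of the embryonic mouse stomach and in no other library of the series are described here. The series holds ATAC-seq peak lists, in which a peak is a stretch of DNA that a transposase could reach, from 7 libraries of the gut. Peaks of the 7 lists on chromosomes 1 to 19 and X that shared 1 bp or more were merged into 326695 regions. The hindstomach library at embryonic day 16 (E16) had a peak in 108720 of them. In 16927 of these, 15.6% (15.4 to 15.8), no other list had a peak, and these are called the unique regions. They were chosen by the presence and absence of peaks, so the rule fixes that they are open in hindstomach only, and no test is made of it.

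The hindstomach epithelium came from E16.5 ShhCre; R26YFP/+ embryos, in which Cre is driven by Shh, a gene of the gut epithelium, and marks cells with YFP. It was released with 10 mM EDTA for 30 to 40 minutes. The other libraries were E16 forestomach of the same cross, whose epithelium was peeled off after dispase and digested with collagenase for sorting, E16 Sox2 KO stomach, E13 stomach, E16 proximal small intestine, E16 colon and E13 intestine. The E16 intestine and colon epithelium was released with 5 mM EDTA, and the E13.5 ShhCre; R26YFP/+ organs were digested with trypsin and sorted from pooled embryos. For the Sox2 KO stomach the sources used here give no strain, allele, isolation or part of the organ. Each group is 1 library, so there is no replicate spread and no test between groups. Shares carry 95% Wilson intervals, which cover counting error and nothing else. Peak positions come without heights or reads, so the depth of each library is unknown.

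The mouse stomach is split into the forestomach, which becomes a squamous, skin-like lining, and the hindstomach, which becomes glandular. Glandular epithelium later holds surface and neck mucous cells, parietal cells that pump acid, chief cells that make digestive enzymes, and endocrine cells. Cells of a tissue read their genes through promoters at the start sites and through enhancers, short stretches that bind transcription factors and can lie far from the gene they act on. Most of the chromatin that differs between cell types lies at such distant sites.

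The annexin gene Anxa10, a gene of gastric epithelium, held the densest group of unique regions in the genome. Its promoter window at chr8:62123144-62123443 on the minus strand (GRCm38.p6, 250 bases before to 50 after the start site) is shown first, since only the 3 E16 stomach libraries had a peak over it. Peaks covered 290 of its 300 bases in hindstomach, 300 in forestomach and 300 in Sox2 KO stomach, and 0 in the other 4 libraries. The window was not itself a unique region. Capitals mark matches to the motifs searched, here TGANTCA of AP-1, the dimer of FOS and JUN proteins, at bases -180 and -16 from the start site, and TAATTA of homeodomain factors at -234.
Anxa10 promoter: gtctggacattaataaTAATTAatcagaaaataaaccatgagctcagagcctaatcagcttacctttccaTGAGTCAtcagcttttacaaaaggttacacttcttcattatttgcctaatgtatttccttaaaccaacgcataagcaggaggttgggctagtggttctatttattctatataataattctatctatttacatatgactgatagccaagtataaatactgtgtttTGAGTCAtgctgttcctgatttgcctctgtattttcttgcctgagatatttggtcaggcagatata
The sequences that follow are unique regions that lie wholly inside the promoter window of a protein-coding gene, and they were picked after their motifs were seen. With no genome used here, sequence was at hand only inside the RefSeq promoter windows of GRCm38.p6, which held 57 unique regions whole. Positions are 1-based, with the deposited starts read as counted from 0. Reg1, a secreted lectin of stomach and pancreas (chr6:78425803-78425925, plus strand), Ghr, the growth hormone receptor (chr15:3581839-3581948, minus strand), the kinase gene Pkn3 (chr2:30078535-30078651, plus strand) and the coiled-coil gene Ccdc7a (chr8:129065487-129065625, minus strand) are shown for an AP-1 match in capitals. In Ghr the capitals also hold AGGAAG of ETS factors on the other strand.
Reg1: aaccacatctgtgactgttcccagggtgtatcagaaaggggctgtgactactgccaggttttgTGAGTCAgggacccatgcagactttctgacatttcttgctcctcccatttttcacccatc
Ghr: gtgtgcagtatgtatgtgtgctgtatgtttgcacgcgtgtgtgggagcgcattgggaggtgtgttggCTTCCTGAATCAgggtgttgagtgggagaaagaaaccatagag
Pkn3: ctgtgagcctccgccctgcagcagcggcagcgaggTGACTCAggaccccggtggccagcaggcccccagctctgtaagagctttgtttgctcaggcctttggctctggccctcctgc
Ccdc7a: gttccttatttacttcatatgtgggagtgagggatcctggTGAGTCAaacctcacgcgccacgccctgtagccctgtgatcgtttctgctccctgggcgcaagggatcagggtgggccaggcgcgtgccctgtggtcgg
A4gnt, the enzyme that caps the mucin of gastric gland cells with N-acetylglucosamine (chr9:99612349-99612471, plus strand), is shown for GGGTGTG of KLF factors. Pde1b, a cyclic nucleotide phosphodiesterase (chr15:103506965-103507076, plus strand), is shown for TGTTTAC of forkhead factors.
A4gnt: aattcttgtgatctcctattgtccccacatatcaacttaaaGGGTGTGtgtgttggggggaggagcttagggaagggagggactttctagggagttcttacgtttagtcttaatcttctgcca
Pde1b: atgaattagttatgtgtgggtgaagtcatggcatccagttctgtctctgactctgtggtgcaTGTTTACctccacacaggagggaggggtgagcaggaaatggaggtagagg
A match says that the letters are present and not that a factor binds there. Of the 57 unique regions inside windows, 9 held an AP-1 match (15.8%), 5 a KLF match (8.77%) and 3 a forkhead match (5.26%). An ETS match stood in 16 (28.1%), and 25 (43.9%) held none of the motifs searched. The nearest peak of another list lay 89 bp from the Ghr region, 158 bp from Reg1 and 217 bp from Pkn3. It lay 2794 bp from A4gnt, 2909 bp from Pde1b and 7579 bp from Ccdc7a.

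The unique regions were narrow, and each consisted of a single hindstomach peak. Their median width was 99 bp, against 161 bp for the 96190 other hindstomach peaks. The smallest width in the hindstomach list, 89 bp, was found in 36.3% (35.6 to 37.1) of unique regions and in 9.69% of the other peaks. A width of 200 bp or more was found in 4.61% of unique regions and in 37.0% of the other peaks. Width grew with the number of lists that shared a region, with medians of 99, 119, 129, 153, 179, 203.5 and 318 bp for hindstomach peaks in regions of 1 to 7 lists. Narrow peaks were also common in the regions unique to each other library. The share at that library's own smallest width was 37.0% in forestomach, 22.1% in Sox2 KO stomach, 37.0% in E13 stomach, 35.5% in E16 intestine, 30.7% in colon and 41.6% in E13 intestine.
The edge of the rule ran through peaks of like width. Within 10 bp of another list's peak lay 172 unique regions with a median width of 97 bp, and 21 of them touched that peak with no shared base. Just outside the rule, 218 hindstomach peaks were covered by other lists over 1 to 10 bp, with a median width of 96 bp. The widest unique region, of 447 bp, lay inside Rgmb, a co-receptor for bone morphogenetic proteins (chr17:15808723-15809169). It was followed by 426 bp near Mrps24, a mitochondrial ribosomal protein gene, and 415 bp inside the neuronal adhesion gene Lsamp. Of the unique regions, 10778 were wider than the smallest width. When the widest peaks of every list were taken at equal list length, which shortens the hindstomach list too, 9295 were unique.

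Unique regions lay mostly away from the ends of genes. Within 1 kb of an end of a protein-coding gene lay 5.34% (5.01 to 5.69) of unique regions, against 16.3% (16.05 to 16.52) of the 91793 other hindstomach regions. Hindstomach regions shared with 1 or 2 other lists did not differ from this beyond counting error, at 5.45% (5.13 to 5.79) and 5.39% (5.08 to 5.73). The share then was 6.67% with 4 lists, 14.0% with 5, 23.5% with 6 and 55.9% with all 7. The regions unique to other libraries had shares of 4.20% in forestomach, 8.29% in Sox2 KO stomach, 3.87% in E13 stomach, 4.03% in E16 intestine, 2.56% in colon and 3.71% in E13 intestine. The hindstomach share thus stood above those of the 5 other wild-type libraries and below that of Sox2 KO stomach. These gaps exceed counting error, but with 1 library per group a difference between tissues was not tested.
Inside gene bodies lay 45.7% (44.9 to 46.4) of unique regions and 54.0% (53.7 to 54.3) of other hindstomach regions. The distance to the nearest start site at hand had a median of 30679 bp for unique regions and 20957.5 bp for other hindstomach regions. The start-site table used here does not cover chromosome 18, which was left out. It also lacks the starts of some genes elsewhere, so some distances are too long. A unique region inside Arfgef1, a gene of 95.2 kb, was put 713675 bp from a start. More than 50 kb from any start site in the table lay 37.4% (36.6 to 38.1) of unique regions and 29.7% of the others. Within 1 kb of a start site in the table lay 4.53% of unique regions and 15.4% of the others. The part of the missing starts in these values was not tested. By chromosome, the unique share of hindstomach regions ran from 13.9% (12.96 to 14.98) on chromosome 17 to 17.9% (16.54 to 19.40) on the X.

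**Figure D1:**
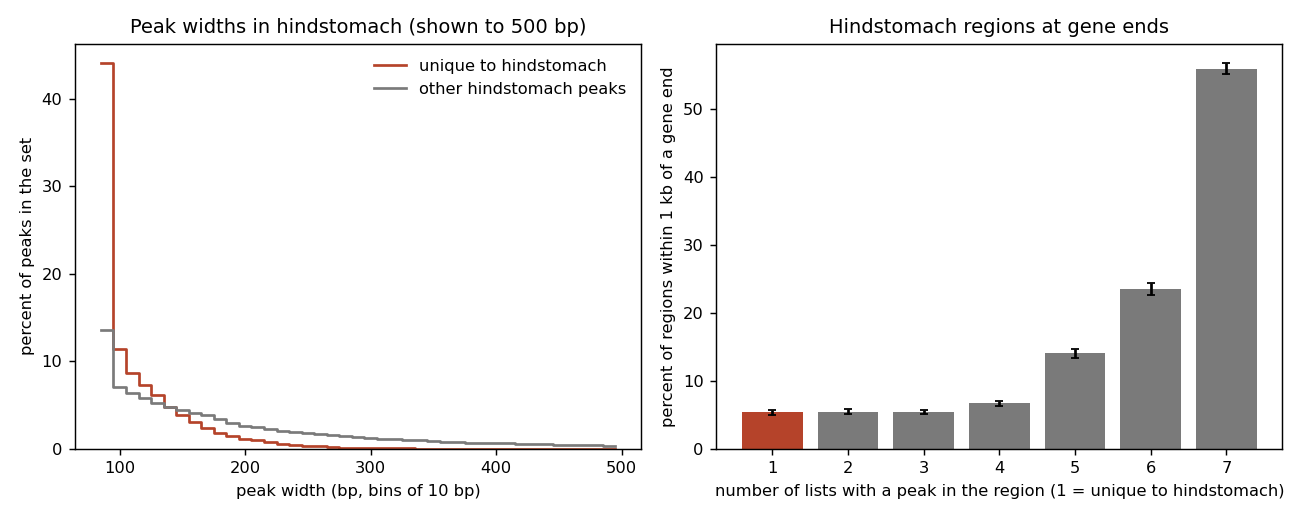
Left, the percent of peaks in each width bin of 10 bp, for regions unique to hindstomach (red) and other hindstomach peaks (grey); the red line is highest at the smallest widths, near the minimum of 89 bp. Right, the percent of hindstomach regions within 1 kb of a gene end by the number of lists that hold the region, with 95% Wilson intervals; the bars stand at 5.34% for unique regions and at 55.9% for regions of all 7 lists.

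Many unique regions lay near chromatin that was open elsewhere. The nearest peak of any other list was at a median distance of 2050 bp. Within 250 bp lay such a peak for 15.2% (14.6 to 15.7) of unique regions, within 1 kb for 33.9% (33.2 to 34.6) and within 5 kb for 74.1% (73.4 to 74.7). Taken list by list, the median distance was 8957 bp to forestomach, 8000 bp to Sox2 KO stomach, 8196 bp to E13 stomach, 8242 bp to E16 intestine, 5798 bp to colon and 10331 bp to E13 intestine. Colon has the longest list and E13 intestine the shortest, and the part of list length in this order was not tested. Within 250 bp the Sox2 KO list had a peak beside 1164 unique regions, forestomach beside 901, E13 stomach beside 871, colon beside 746, E16 intestine beside 613 and E13 intestine beside 589.
Another hindstomach peak lay at a median of 7280 bp from unique regions and of 5254 bp from other hindstomach peaks. Another unique region lay within 5 kb for 7.32% (6.94 to 7.72) of them and within 10 kb for 15.3% (14.8 to 15.9). For most, then, no other unique region lay within 10 kb.

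The densest group was at Anxa10, with 7 unique regions within 54.673 kb of chromosome 8 (62065094 to 62119766), the most within 100 kb anywhere in the genome. The same stretch held 10 hindstomach regions, 4 of forestomach, 2 of Sox2 KO stomach, 1 of E13 stomach, 0 of E16 intestine, 2 of colon and 1 of E13 intestine. From the start site the unique regions lay 3.43 to 3.52, 11.9 to 12.0, 22.4 to 22.5, 24.0 to 24.2, 25.1 to 25.3, 42.0 to 42.3 and 58.0 to 58.1 kb into the gene. The 5 between 11.9 and 42.3 kb were 113, 173, 142, 215 and 254 bp wide, and the other 2 were 90 and 89 bp wide. The eighth unique region assigned to the gene lay between -63.98 and -63.89 kb from the start site. Shared peaks surrounded them. Hindstomach and forestomach shared the regions at -10.1, -5.80, 4.66 and 43.8 kb, both shared the regions at the start site and at 5.94 kb with Sox2 KO stomach, the region at -61.3 kb was also open in forestomach, E16 intestine and colon, and a pair behind the far end of the gene was open in all 7 libraries. Anxa10 had 17 regions in hindstomach, 10 in forestomach, 6 in Sox2 KO stomach, 3 in E13 stomach, 3 in E16 intestine, 8 in colon and 5 in E13 intestine.
Other groups were less dense. The closest held 6 unique regions within 51.212 kb at Slc19a3, a thiamine transporter, within 53.141 kb at Armh3 and Hps6, and within 60.295 kb at Ccdc81 and Me3, the last a mitochondrial malic enzyme. None of these stretches was without peaks elsewhere, as the Slc19a3 stretch held 11 regions of hindstomach, 3 of forestomach, 4 of Sox2 KO stomach and 6 of colon.

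**Figure D2:**
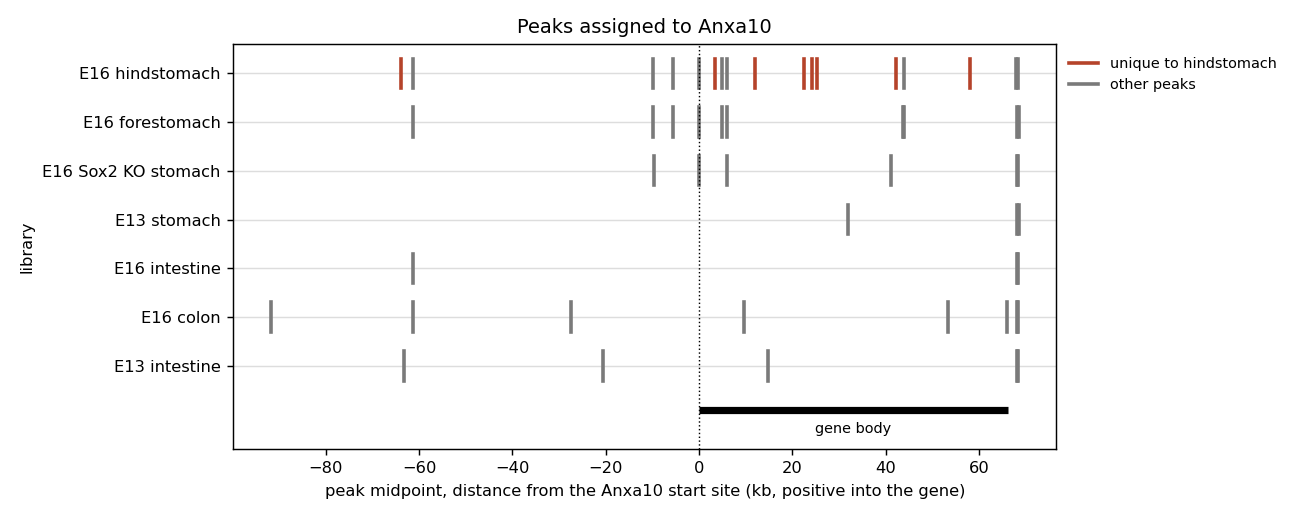
Midpoints of all peaks assigned to Anxa10 by library, with hindstomach on top and distance from the start site in kb on the x axis; red marks are unique to hindstomach and the black bar is the gene body. The 7 red marks inside the gene body have no counterpart in the rows below, while the grey marks near the start site recur in forestomach and Sox2 KO stomach.

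Each region was given to the protein-coding gene whose body lay nearest, up to 100 kb away. In this way 13813 of the unique regions (81.6%) fell to 7759 of 21631 protein-coding genes, or 35.9%. For regions unique to the other libraries this percentage of genes was 28.3% for forestomach, 45.6% for Sox2 KO stomach, 39.3% for E13 stomach, 40% for E16 intestine, 59.2% for colon and 36.2% for E13 intestine. The median length was 40.5 kb for genes with a unique region and 11.6 kb for genes without, and the part of length in these counts was not tested. Of the genes with a unique hindstomach region 45.9% also had one unique to forestomach and 80.2% one unique to colon, which are 58.3% and 48.6% of the genes with such regions in forestomach and colon.
At least 3 unique regions were found at 1420 genes, 6.56% of those tested. Foxp1, a forkhead transcription factor, and Mecom, a zinc-finger transcription factor, had the most with 14 each. At Foxp1 these were 14 of 52 hindstomach regions, and forestomach had 34 regions there, Sox2 KO stomach 53, E13 stomach 42, E16 intestine 41, colon 47 and E13 intestine 26. At Mecom they were 14 of 54 hindstomach regions, beside 46 in forestomach, 46 in Sox2 KO stomach, 50 in E13 stomach, 35 in E16 intestine, 54 in colon and 30 in E13 intestine. Colon had 23 regions of its own at Mecom and E13 stomach 19, more than the 14 of hindstomach. Without peaks at the smallest width, 9 unique regions were left at Foxp1 and 8 at Mecom. Gpc5, a glypican, Lsamp, Ptprn2, a phosphatase-like protein of secretory granules, and Rbms3, an RNA-binding protein, had 12 each. Another 9 genes followed with 11 each, among them Chrm3, a muscarinic acetylcholine receptor, with 11 of 38, and the adhesion genes Tenm2 and Tenm3. These 15 genes are long, with a median of 900.3 kb.
Share rather than number picked shorter genes. Among the 3606 genes with 8 or more hindstomach regions, the unique share was highest at Arfgef1, which activates ARF proteins of vesicle traffic, and Sphkap, a kinase anchor protein, with 5 of 8 each. Cavin4, a caveola protein of muscle, had 6 of 10, St8sia2, a polysialyltransferase, 5 of 9, and Slc13a1, a sulfate transporter, 6 of 11. F13a1, a clotting factor subunit, and Abca13, a lipid transporter, had 7 of 14 each. None of these genes was without peaks in another library. At 68 genes no other library had any region, and 66 of these had 1 unique region. By symbol 18 of the 68 were olfactory receptor genes, as were 1110 of all 21631 genes.

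Genes of the mucous lineage of the glandular stomach had 104 hindstomach regions. Of these 22 were unique, 21.2% (14.4 to 30.0), an interval that holds the 14.8% (14.6 to 15.0) of all protein-coding genes. At least 1 unique region was found at 9 of the 18 genes, and the median gene had 0.5. For regions unique to another library, the same genes' share was 6.58% in forestomach, where all genes had 13.01%, and 8.77% in E16 intestine, where all genes had 21.5%. It was 31.9% in Sox2 KO stomach against 27.2% for all genes, 22.2% in E13 stomach against 23.6%, 42.2% in colon against 39.7% and 24.4% in E13 intestine against 24.97%. Anxa10 alone gave 8 of the 22, and without it the hindstomach share was 16.1% (9.83 to 25.2). Counted whole, the list had 104 regions in hindstomach, 76 in forestomach, 94 in Sox2 KO stomach and 63 in E13 stomach. It had 57 in E16 intestine, 83 in colon and 45 in E13 intestine. Over all protein-coding genes the regions numbered 93226 in hindstomach, 72794 in forestomach, 93720 in Sox2 KO stomach and 77839 in E13 stomach. They numbered 78193 in E16 intestine, 105237 in colon and 62780 in E13 intestine. The part of these totals in the order of the list's counts, highest in hindstomach, was not tested.
Fut9, a fucosyltransferase that builds Lewis x sugars, followed with 4 unique of 13 hindstomach regions, of which 1 lay 708 bp from an end of the gene. Vsig1, a junctional adhesion protein of gastric epithelium, had 3 of 6, which lay 3.47, 16.4 and 21.8 kb outside the gene. Forestomach had 3 regions at Vsig1, Sox2 KO stomach 2, E13 stomach 3, E16 intestine 1, colon 4 and E13 intestine 0. Cldn18, the tight-junction claudin of the stomach, had 1 of 13, and Gkn3, a gastrokine, 1 of 6. Capn8 and Capn9, the calpains that form the gastric G-calpain, had 1 of 11 and 1 of 4. Muc5ac, the mucin of surface cells, had 4 hindstomach regions and Gkn1 had 2, none of them unique.

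Parietal cell genes had 22 unique of 128 hindstomach regions, 17.2% (11.6 to 24.7), at 7 of 12 genes. Kcnq1, the potassium channel that recycles potassium to the acid pump, gave 9 of them among its 22 hindstomach regions, and without it the share was 12.3% (7.31 to 19.9). Sox2 KO stomach had 30 regions at Kcnq1, more than the 22 of hindstomach, and forestomach had 13, E13 stomach 18, E16 intestine 14, colon 10 and E13 intestine 9. Of the 9 unique regions 7 lay inside the gene, and the widest, of 225 bp, lay 1317 bp outside it (chr7:143105335-143105559). Esrrg, a nuclear receptor of acid-secreting cells, had 5 of 43, Aqp4, a water channel, 3 of 9, and Car2, a carbonic anhydrase, 2 of 9. Kcne2, the partner subunit of Kcnq1, had 1 of 10. The single hindstomach region at Atp4b, the beta subunit of the acid pump, was a unique one of 93 bp, 751 bp outside the gene (chr8:13385365-13385457). Sox2 KO stomach and colon each had 1 region of their own at Atp4b. The single hindstomach region at Atp4a, the catalytic subunit, was shared.
Chief cell genes had few regions in any library, and 3 of 16 in hindstomach were unique. The single hindstomach region at Cblif, the gene of gastric intrinsic factor, was unique, and lay 8761 bp outside the gene. It was 89 bp wide, the smallest width in the list. Forestomach had 2 regions at Cblif, 1 of them its own, and Sox2 KO stomach had 1. Chia1, an acidic chitinase, had 1 of 2, and Pgc, the pepsinogen C gene, had 1 hindstomach region, a shared one. Endocrine genes had 5 of 54, among them 1 each at the transcription factor genes Neurod1 and Rfx6, the serotonin enzyme gene Tph1 and the calcium sensor gene Scgn, and with 0 of 1 at Ghrl, the gene of ghrelin.

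**Figure D3:**
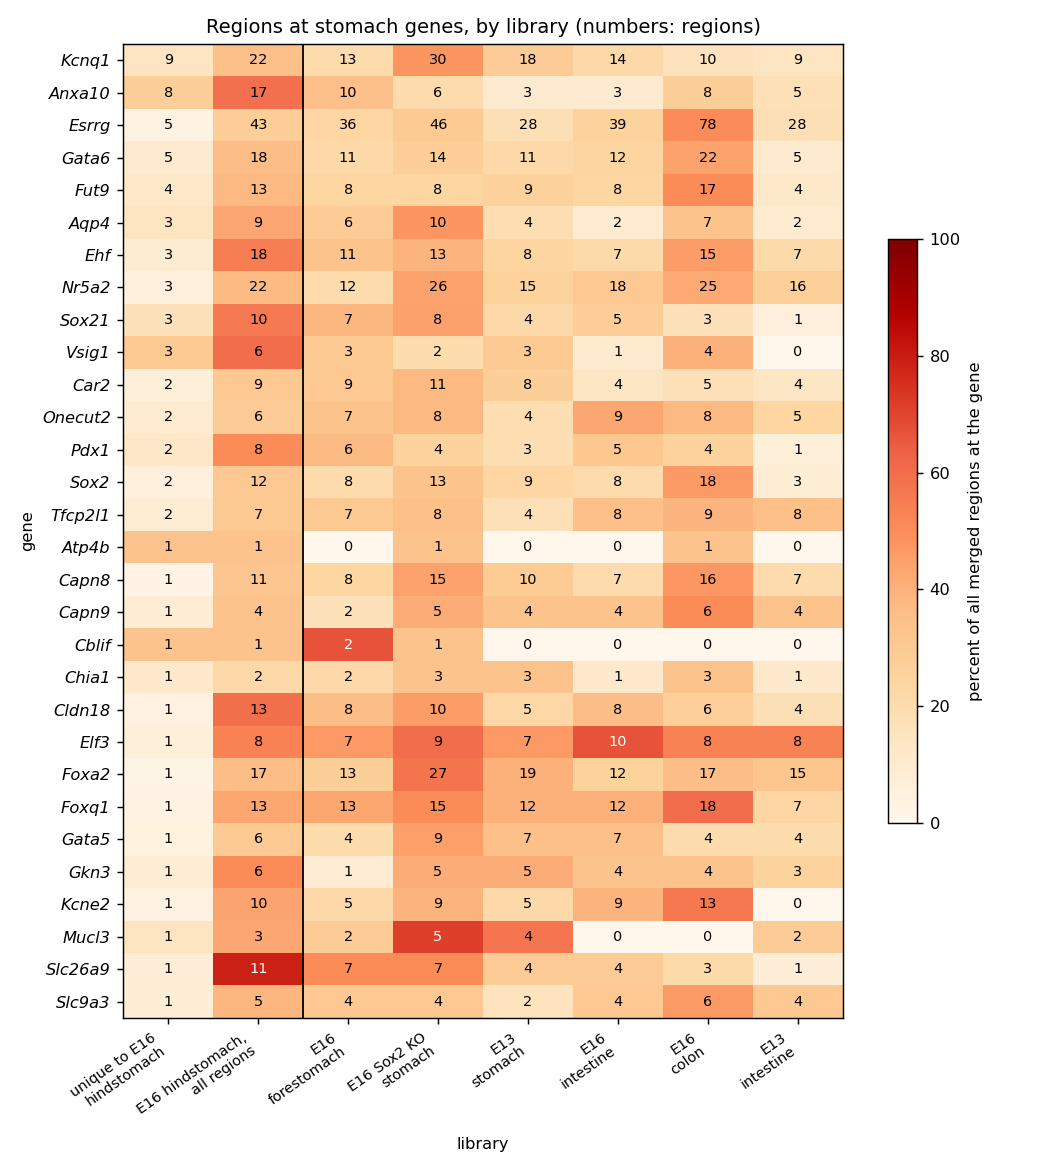
Regions at the 30 stomach genes with 1 or more unique regions, by library; each number counts regions, and the colour is the percent of all merged regions at the gene that the library holds. Kcnq1 with 9 and Anxa10 with 8 lead the left column, and the top row shows 30 regions at Kcnq1 in Sox2 KO stomach.

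Transcription factor genes of the stomach had 215 hindstomach regions. Of these 24 were unique, 11.2% (7.62 to 16.07), at 11 of 20 genes, and this interval too holds the share of all genes. Gata6, an endoderm factor, led with 5 of 18, and all but 1 of these lay outside the gene. Regions of their own at Gata6 numbered 13 in colon, 6 in Sox2 KO stomach, 4 in E16 intestine and 2 in E13 stomach. Forestomach and E13 intestine had 1 each. Ehf, an epithelial ETS factor, had 3 of 18, of which 1 lay inside the gene, 563 bp from its end. Nr5a2, a nuclear receptor of gut epithelium, had 3 of 22, and Sox21, a SOX factor of the foregut, had 3 of 10, all 3 outside the gene. Sox2, the foregut factor that names the KO library, had 2 of 12, at 12.9 kb and 54.7 kb outside the gene, and KO stomach had 13 regions assigned to it. At Sox2 colon had 9 regions of its own, Sox2 KO stomach 5, E13 stomach 3 and forestomach 2. E16 intestine had 1 and E13 intestine 0. Pdx1, a factor of the antrum and pancreas, had 2 of 8. Gata4, which marks glandular stomach, had 18 hindstomach regions and none was unique, and the same held for 2 regions at Nkx6-3, an antral factor, and 4 at Cdx2, the intestinal master factor.
Lists of other gut lineages had unique regions too. Intestinal transcription factors had 5 of 64 at 5 of 10 genes and enterocyte genes 7 of 81 at 6 of 20, or 7.81% (3.38 to 17.0) and 8.64% (4.25 to 16.8). Squamous genes had 13 of 61 at 8 of 18, 21.3% (12.9 to 33.1), with 4 of 8 at Trp63, the master factor of squamous epithelium, all 4 inside the gene, of which 2 were left without peaks at the smallest width. Forestomach had 6 regions at Trp63, Sox2 KO stomach 9, E13 stomach 12, E16 intestine 3, colon 5 and E13 intestine 13.

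Genes of signalling pathways were described by the same counts. Wnt genes had a unique region at 15 of 18 and BMP and TGF-beta genes at 13 of 16, above 35.9% of all genes, whereas the unique shares of their regions were 14.2% (10.0 to 19.8) and 13.2% (9.38 to 18.4). Their genes are longer, with medians of 42.3 and 65.0 kb against 17.3 kb for all genes, and the part of length in these percentages was not tested. Tcf7l2, the main Wnt effector of gut epithelium, had 6 of 35, Sfrp1, a secreted Wnt inhibitor, 4 of 14, and Fzd5, a Wnt receptor, 2 of 4. Bmpr1a, a BMP receptor, had 3 of 6, and at this gene forestomach had 1 region, Sox2 KO stomach 4, E13 stomach 5, E16 intestine 3, colon 5 and E13 intestine 4. The percentage of genes with a unique region was 60% (31.3 to 83.2) for Hedgehog, 57.1% (32.6 to 78.6) for Notch and 46.2% (23.2 to 70.9) for FGF genes, and these intervals hold the 35.9% of all genes. Hedgehog genes had 8 of 91 with 3 of 12 at the receptor Ptch1, Notch genes 17 of 178 with 5 of 47 at the coactivator Maml3, and FGF genes 14 of 106 with 4 of 15 at the receptor Fgfr2. Actin and junction genes had 33 of 229 at 10 of 15 genes, 66.7% (41.7 to 84.8), with 9 of 37 at the polarity gene Pard3. These genes too are long, with a median of 57.0 kb, and the part of length was not tested. Pan-epithelial genes had 12 of 129. Ribosomal protein genes had 1 of 35 at 1 of 18 genes.
Genes of cell types that the epithelium should lack had unique regions as well. Over all protein-coding genes, 35.9% had a unique region and 14.8% of hindstomach regions were unique. Endothelial genes had 16 of 91 at 8 of 10, 17.6% (11.1 to 26.7), with 3 of 9 at the cadherin gene Cdh5 and 3 of 13 at the receptor gene Kdr. Their median length was 53.7 kb, against 17.3 kb for all genes, and the part of length was not tested. Mesenchyme genes had 13 of 90 at 7 of 18, with 4 of 16 at Zeb1. Blood and immune genes had 7 of 65 at 4 of 12, and neural genes 5 of 54 at 4 of 11. Liver, lung and pancreas genes had 13 of 55 at 7 of 11, 23.6% (14.4 to 36.3), with 4 of 14 at Prox1, a liver and endothelial factor, and 3 of 6 at Sftpb, a lung surfactant gene. The unique share of the mucous genes was therefore no higher than that of this last list. An open region near a gene does not show that the gene is expressed, and the part of other cell types in these counts was not tested.

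**Figure D4:**
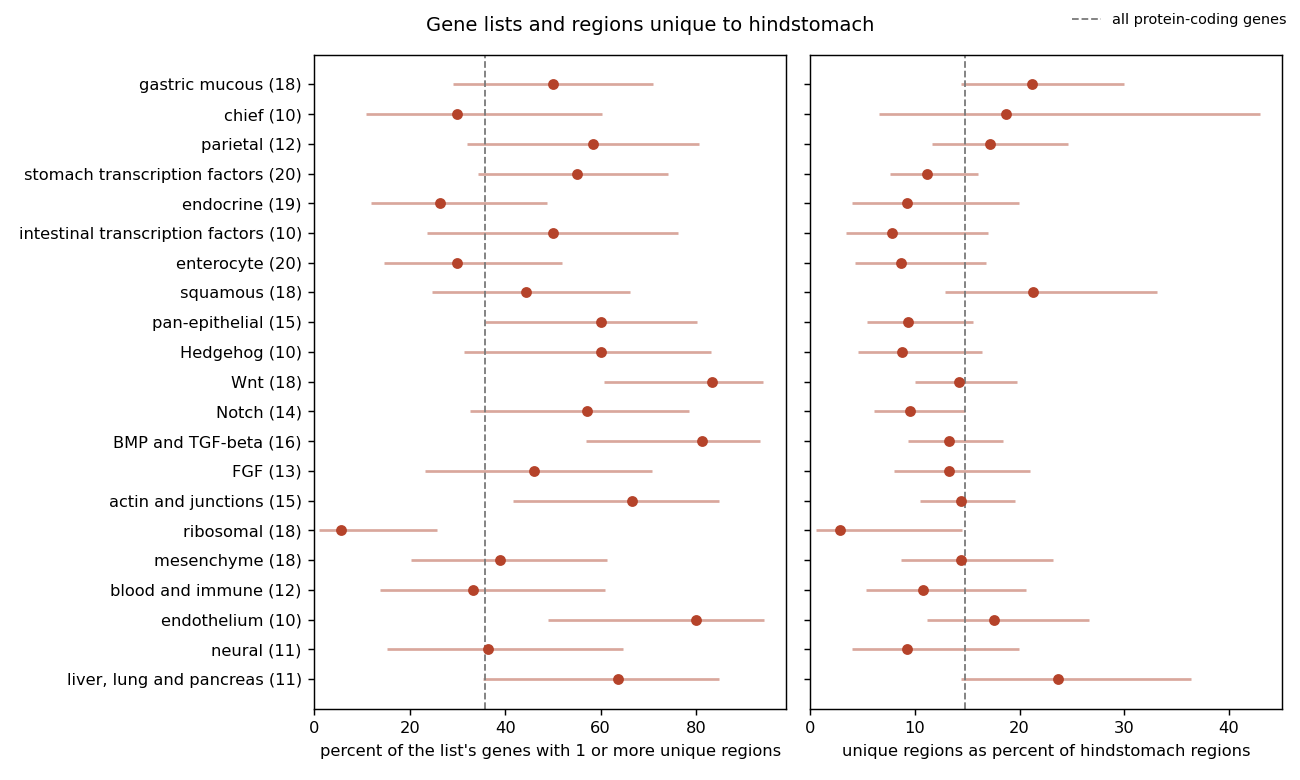
For the 21 gene lists (number of genes in parentheses), the percent of genes with 1 or more unique regions (left) and the unique regions as a percent of the list's hindstomach regions (right), with 95% Wilson intervals; dashed lines stand at 35.9% and 14.8% for all protein-coding genes. In the left panel the intervals of Wnt, BMP, endothelial and actin and junction genes lie wholly to the right of the line, and that of ribosomal genes to its left. The genes of the former lists have longer medians than all genes, and the part of length was not tested. In the right panel the intervals of Notch and ribosomal genes lie wholly to the left of the line, and the others cross it.

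Few unique regions lay over promoters. A unique region overlapped 152 of 32619 RefSeq promoter windows. In number these were 139 unique regions, 0.821% (0.696 to 0.969), against 10444 other hindstomach regions, 11.4% (11.2 to 11.6). Of the 152 windows 82 belonged to protein-coding genes, 53.9% (46.0 to 61.7), against 85.4% of the 13129 windows with another hindstomach region. Their median GC content was 50.7%, against 61.7% in the windows with another hindstomach region and 53.0% in all windows. At least 15 CG dinucleotides, a mark of CpG islands, were present in 13.8% (9.22 to 20.2) of windows with a unique region, against 72.2% of windows with another hindstomach region and 34.9% of all windows. In windows with a region unique to another library this share was 18.9% for forestomach, 18.7% for E13 stomach, 13.46% for E16 intestine, 13.2% for colon, 15.4% for E13 intestine and 41.3% for Sox2 KO stomach, and their median GC content ran from 50.7% in E16 intestine to 57.2% in Sox2 KO stomach. Among genes of the mucous, chief, parietal and stomach transcription factor lists that had a window, none had a unique region over it. Genes of chromosome 18 and some others, among them Atp4b, Car2 and Ehf, had no window and could not be judged.

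Of the 16 motifs searched, the AP-1 motif TGANTCA had the largest gain over all windows in the windows with a unique region, in percentage points and as a ratio. It was found in 23.7% (17.6 to 31.0) of the 152 windows, against 5.59% (5.21 to 5.997) of windows with another hindstomach region and 7.85% of all windows. In windows with a region unique to another library it stood in 30.5% (22.2 to 40.4) for forestomach, 14.1% for E16 intestine, 6.92% for Sox2 KO stomach, 6.83% for E13 stomach, 5.77% for E13 intestine and 5.26% (2.69 to 10.04) for colon. The hindstomach interval thus met those of forestomach and E16 intestine and lay above the other 4. These intervals cover counting error only, and with 1 library per group a difference between tissues was not tested. Isolation differed between these libraries, and E16 intestine and colon, both released with 5 mM EDTA, stood at 14.1% and 5.26%. The part of isolation in these shares was not tested.
Within the windows, AP-1 letters stood where the peaks were. The part covered by unique regions held 26 matches in 12775 bases, 2.04 per kb, and the uncovered part 15 in 32825 bases, 0.457 per kb, against 0.277 per kb over all windows. GGGTGTG of KLF factors stood at 1.25 per kb in the covered part, 0.244 in the uncovered part and 0.293 over all windows. The covered part held 16 KLF matches, and several of them were repeats within the region at Gm51695, which is not protein-coding. Counted by window, KLF letters stood in 11.8% (7.62 to 17.9), an interval that holds the 7.998% of all windows. For regions unique to other libraries the KLF share ran from 7.21% in E13 intestine to 13.8% in colon. The GATA motif AGATAA was found in 18.4% (13.1 to 25.3) of the windows, against 5.42% of windows with another hindstomach region and 11.2% of all windows. The GATA share for regions unique to other libraries ran from 8.27% in E13 stomach to 20.5% in E16 intestine, above that of hindstomach. It was 12.6% in forestomach, 8.35% in Sox2 KO stomach, 8.55% in colon and 13.46% in E13 intestine. When only windows of protein-coding genes were taken, the hindstomach GATA share was 13.4%. GATA letters, unlike those of AP-1, stood at 0.313 per kb in the covered part and at 0.731 per kb in the uncovered part. SP letters, GGGCGGG, stood in 8.55% (5.07 to 14.1) of the windows against 48.1% of windows with another hindstomach region, and CTCF letters, AGGGGGC, in 4.61% against 16.4%. For regions unique to other libraries the SP share was 13.7% in forestomach, 35.7% in Sox2 KO stomach and 21.2% in E13 stomach. It was 9.62% in E16 intestine, 9.87% in colon and 15.9% in E13 intestine. The CTCF share there ran from 2.11% in forestomach to 15.0% in Sox2 KO stomach. ETS letters, AGGAAG, stood in 44.7% (37.1 to 52.7) against 31.7% of windows with another hindstomach region, but in 31.7% when only windows of protein-coding genes were taken. For regions unique to other libraries the ETS share ran from 33.3% in Sox2 KO stomach to 51.6% in forestomach, with 44.9% in E16 intestine. CATTGTT of SOX factors stood in 2.63% of windows with a unique region and in 3.77% of all windows. Motifs were searched on both strands, and AGGAAG and other short motifs can overlap each other.

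**Figure D5:**
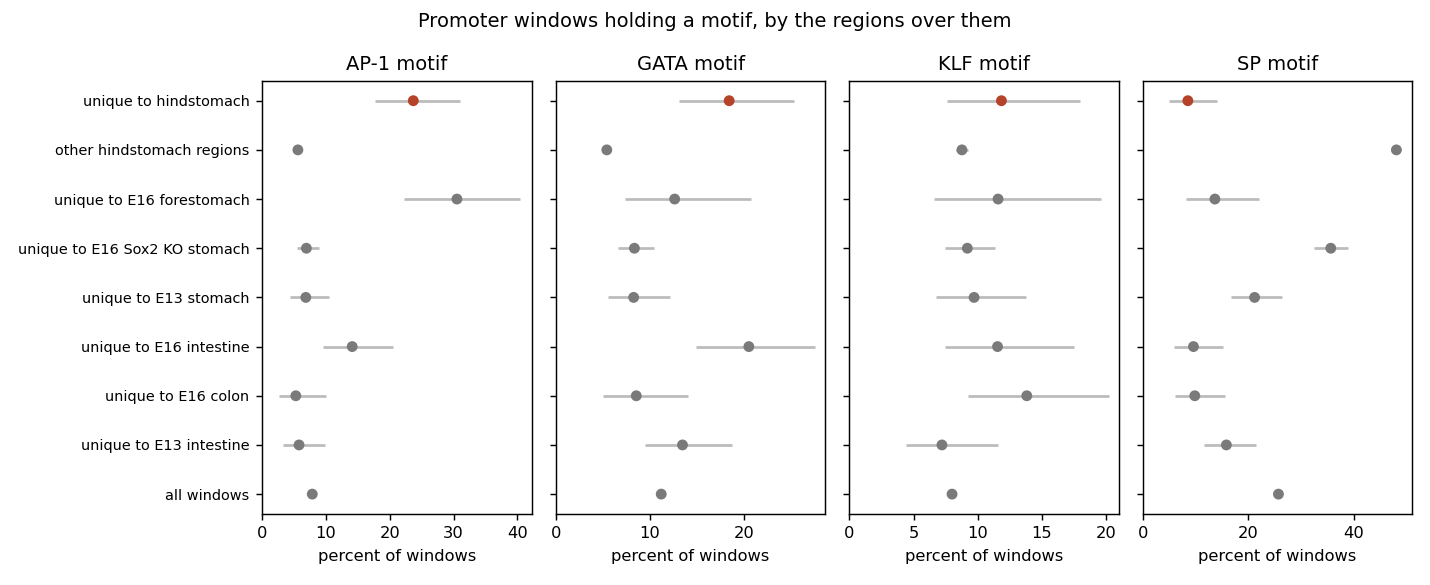
Percent of promoter windows that hold the AP-1, GATA, KLF or SP motif, by the kind of region over the window, with 95% Wilson intervals; windows with a region unique to hindstomach are in red. The AP-1 share stands at 23.7% in hindstomach and 30.5% in forestomach, and at 7.85% in all windows.

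Some unique regions lay near microRNA genes. From the 1005 hairpins that RefSeq gives, 86 lay within 5 kb of a unique region, 8.56% (6.98 to 10.4), and 3, those of Mir503, Mir1932 and Mir8103, were overlapped by one. For regions unique to the other libraries this share was 5.17% in forestomach, 20.6% in Sox2 KO stomach, 7.76% in E13 stomach, 8.16% in E16 intestine, 15.1% in colon and 6.07% in E13 intestine, so hindstomach lay within their range. Mir503 and Mir322 are neighbours on the X chromosome, and Mir322 lay 190 bp from the same unique region. Both belong to the family of miR-15 and miR-16, which slows the cell cycle. Their mature 5p sequences are shown with the seed, bases 2 to 8, in capitals, since the seeds share the letters AGCAGC.
mmu-miR-503-5p: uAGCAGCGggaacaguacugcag
mmu-miR-322-5p: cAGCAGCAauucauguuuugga
Mir31, whose hairpin lies on chromosome 4, stood 148 bp from a unique region.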

How the data were processed

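The deposited files give 3 columns per peak, the chromosome, start and end, with no score, for 7 libraries of mouse embryonic gut, 1 per group. Per the submitters' processing notes, cutadapt, Bowtie2 and MACS2 were used on mm10 (GRCm38), and the sources used here give no versions or settings. The deposited positions were read as half-open intervals with starts counted from 0, which the sources used here do not state, and are printed 1-based. Peaks on chromosomes 1 to 19 and X that shared 1 bp or more were merged with Python 3.11.15, numpy 2.4.6 and pandas 2.3.3, and a region with a peak in hindstomach alone was kept. Merging and distances were tested on simulated data. Regions were given to the protein-coding gene (RefSeq, GRCm38.p6) with the nearest body, at most 100 kb away. A gene end is 1 kb around either end of such a gene. Promoter windows (250 bases before to 50 after a start site) and microRNAs came from RefSeq tables of the same build. In all, 32619 windows were used, none of them on chromosome 18, and some genes of other chromosomes had no window either. Shares have 95% Wilson intervals.

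No test across groups was made, since each group has 1 library. Gene lists (21 lists, 308 genes, all found) and 16 motifs were searched, and the members and lists were chosen with earlier results of these data known. Named genes are the 15 with most unique regions, the 10 with the largest unique share among genes with 8 or more hindstomach regions, the 4 per list with most unique regions, 10 fixed stomach and gut genes, and genes of the widest regions and densest groups; the text prints a part of them, and other members of lists are named where their lists are described. The promoter sequences were chosen after their values were seen. Alternatives covered the merging, the libraries, the widths, the gene assignment and the windows.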

Additional observations from a re-analysis of the deposited data

How the results depend on the processing

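No paired analysis was possible because each group has 1 library and no result comes from a test. The count of 16927 unique regions stayed within 1.5 times under 13 alternatives. It was 23917 without the forestomach list, the highest value. It fell to 11062 when peaks within 1 kb were joined and to 4222 within 5 kb. With hindstomach peaks at or above their list's median width it was 2859, with every list cut to its widest peaks at one length 9295, and without peaks at the smallest width, an alternative chosen after seeing the data, 10778. The gene-end share of 5.34% was 2.62% within 500 bp, 16.48% within 5 kb, 0.236% for overlap of the end itself, 0.851% over promoter windows and 5.92% among regions at or above the median width. The distance to another list's peak was 2392 bp with wild-type lists and 8957 bp with forestomach alone. Genes with a unique region numbered 4713 and listed genes 79 when only gene bodies counted. Among single lists, 13 of 21 moved by over 1.5 times with gene bodies only, 8 within 10 kb and 8 with no other peak within 1 kb. At or above the median width, unique regions numbered 5 of 8 at Anxa10, 5 of 9 at Kcnq1, 5 of 14 at Foxp1, 7 of 14 at Mecom, 2 of 4 at Fut9, 3 of 5 at Gata6, 1 of 4 at Trp63 and 0 of 2 at Sox2. Without peaks at the smallest width they numbered 5 at Kcnq1, 9 at Foxp1, 8 at Mecom, 2 at Fut9, 2 at Trp63 and 1 at Sox2. Within 10 kb of the gene body 1 was left at Vsig1, 1 at Gata6 and 0 at Sox2. With no other peak within 1 kb, 8 were left at Mecom and 1 at Sox2, and within 500 kb Sox2 had 5. Over windows of protein-coding genes alone, chosen after seeing the data, ETS letters stood in 31.7%, forkhead letters in 2.44%, TEAD letters in 4.88% and GRHL letters in 0.0%. The causes of these shifts were not tested beyond what each alternative leaves out. The motif search in 200 bp around each midpoint was not run, since no genome was used here. Without read depth or peak height, an absent peak cannot be told apart from a peak too weak to be called.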
